A study of Mus musculus with 8 samples.

Results

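The genes described here are 9 mouse genes that carry the Th1 programme and its signals: *Ifng*, *Ifngr1*, *Ifngr2*, *Il12rb1*, *Il12rb2*, *Il27ra*, *Jak2*, *Stat4* and *Tbx21*. They were given by name and found by matching their symbols to the Ensembl identifiers of the files, which list 53465 genes. Of the 9 genes, 7 reached 5 CPM (reads of a gene scaled to a common library size) in at least 1 of the 8 libraries, and *Il12rb1* and *Il12rb2* did not. RNA sequencing was carried out on regulatory T (Treg) cells from the spleen and lymph nodes (LN) of C57BL/6 mice aged 3-4 weeks, with 1 library per condition.

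The study deleted and then restored *Brg1* (*Smarca4*), which encodes the ATPase of the BAF chromatin remodelling complex, in Treg cells. All mice carried R26CAG-FlpoER, a Flpo recombinase that tamoxifen (TAM) activates, and Cre was expressed from *Foxp3*, the Treg lineage gene, so that deletion was restricted to cells that have expressed *Foxp3*. In the total Treg experiment, the WT library was BrgF/+ Foxp3YFP-Cre/+. The mosaic libraries came from healthy females in which X inactivation leaves Cre active in only some Treg cells: a *Brg1*-sufficient library labelled BrgF/ΔR Foxp3+/+ and a *Brg1*-deleted library labelled BrgF/ΔR Foxp3YFP-Cre. The sufficient cells lack YFP, so these libraries also differ in the gate. The ΔR allele is a gene trap that expresses GFP until Flpo removes it. The rKO1 mice, which develop inflammatory disease, were BrgF/deltaR Foxp3YFP-Cre/YFP-Cre and gave 3 libraries: *Brg1*-deleted cells without treatment, *Brg1*-deleted (GFP+) cells on Day 7 after TAM, and *Brg1*-reexpressed (GFP−) cells on Day 7 after TAM, whose allele is given as BrgF/+ after reversal. The aTreg experiment, which took activated Treg cells (CD44hi CD62Llo) of treated rKO1 mice on Day 7, gave a library labelled *Brg1*-deleted (BrgF/F in its description) and a library labelled *Brg1*-reexpressed (BrgF/+).

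IL-12 binds a receptor made of IL12RB1 and IL12RB2, whose kinases JAK2 and TYK2 activate STAT4. STAT4 and T-bet, the product of *Tbx21*, are the transcription factors that drive *Ifng* in Th1 cells. IFN-γ in turn binds IFNGR1, which recruits JAK1, and IFNGR2, which brings in JAK2, and their signal induces *Tbx21*. IL-27 acts through IL27RA and gp130 (*Il6st*) and also induces *Tbx21*. Treg cells exposed to Th1 inflammation are known to switch on *Tbx21* and its target *Cxcr3* while expression of the IL-12 receptor stays limited.

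Several libraries went against their labels or stood apart. The deposited FPKM values, in which fragments are divided by exon length and a library total, were turned back into whole reads, 16352986 to 24125054 per library in the total Treg experiment and 17436223 and 19975022 in the aTreg experiment, so that 1 read equals 0.0410 to 0.0601 CPM. *Smarca4* was at 87.8 CPM in WT, 76.9 and 47.0 CPM in the mosaic sufficient and deleted libraries, 43.9 CPM in untreated rKO1, and 36.0 and 57.9 CPM in the GFP+ and GFP− libraries, which follows the labels, although reads from exons before the gene trap remain. In the aTreg experiment it was higher in the library labelled *Brg1*-deleted (71.2 CPM) than in the one labelled *Brg1*-reexpressed (59.4 CPM), against the labels, and the file of the former is headed WT. No Y-linked reads were found in the WT and mosaic libraries. The untreated rKO1 library, whose genotype has YFP-Cre on both X chromosomes, held 4155 Y-linked reads and 10 *Xist* reads. The treated rKO1 and aTreg libraries held both kinds, so that cells of more than 1 mouse were present there. The mix differed between the aTreg libraries labelled *Brg1*-deleted and *Brg1*-reexpressed, with Y-linked reads at 160 and 68.9 CPM and *Xist* at 12.3 and 42.4 CPM. In the GFP+ and GFP− libraries these were at 113 and 84.2 CPM and at 50.8 and 45.3 CPM. In the total Treg experiment *Foxp3* ranged from 72.9 CPM in WT to 535 CPM in the mosaic sufficient library (244 CPM in the mosaic deleted library) and from 105 to 173 CPM in the rKO1 libraries, and was at 93.8 and 62.1 CPM in the aTreg libraries labelled *Brg1*-deleted and *Brg1*-reexpressed. Markers of Treg cells (7 genes, summed at 2447 to 4860 CPM) and of CD4 T cells (4 genes, 2769 to 7255 CPM) were present in each library, beside 4.38 to 29.96 CPM for 4 B cell markers. Other lists summed higher: 10 myeloid or dendritic markers at 44.6 to 677 CPM and 7 CD8 T or NK markers at 123 to 1068 CPM. *Lyz2* and *Nkg7* were the highest genes of these lists in each library. The 8 markers of conventional effector T cells summed to 64.5 to 146 CPM. Because each condition has 1 library, no comparison here has a replicate check or a p-value, and the intervals given cover counting error only.

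The level of each gene is given as normalized FPKM, the recovered reads in CPM, after scaling of the libraries of an experiment by the trimmed mean of M-values (TMM), per kb of exon. Across the 6 total Treg libraries, *Ifngr1* (64.0 to 118) and *Il27ra* (36.5 to 68.3) were the most abundant on this scale, followed by *Ifngr2* (5.93 to 21.2), *Stat4* (11.5 to 15.6) and *Jak2* (6.62 to 10.8). *Tbx21* spanned 0.726 to 8.68 and *Ifng* 0.444 to 13.9. *Il12rb2* was at the bottom with 0.0634 to 0.577, and *Il12rb1* was listed at 0. The highest library exceeded the lowest by 31.2-fold for *Ifng*, 12.0-fold for *Tbx21*, 9.10-fold for *Il12rb2* and 3.58-fold for *Ifngr2*, and by 1.36-fold to 1.87-fold for the other 4 genes with reads. Most genes of the receiving machinery thus varied little, and those that varied were the cytokine, T-bet, the inducible IL-12 receptor chain and the second IFN-γ receptor chain.

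**Figure D1:**
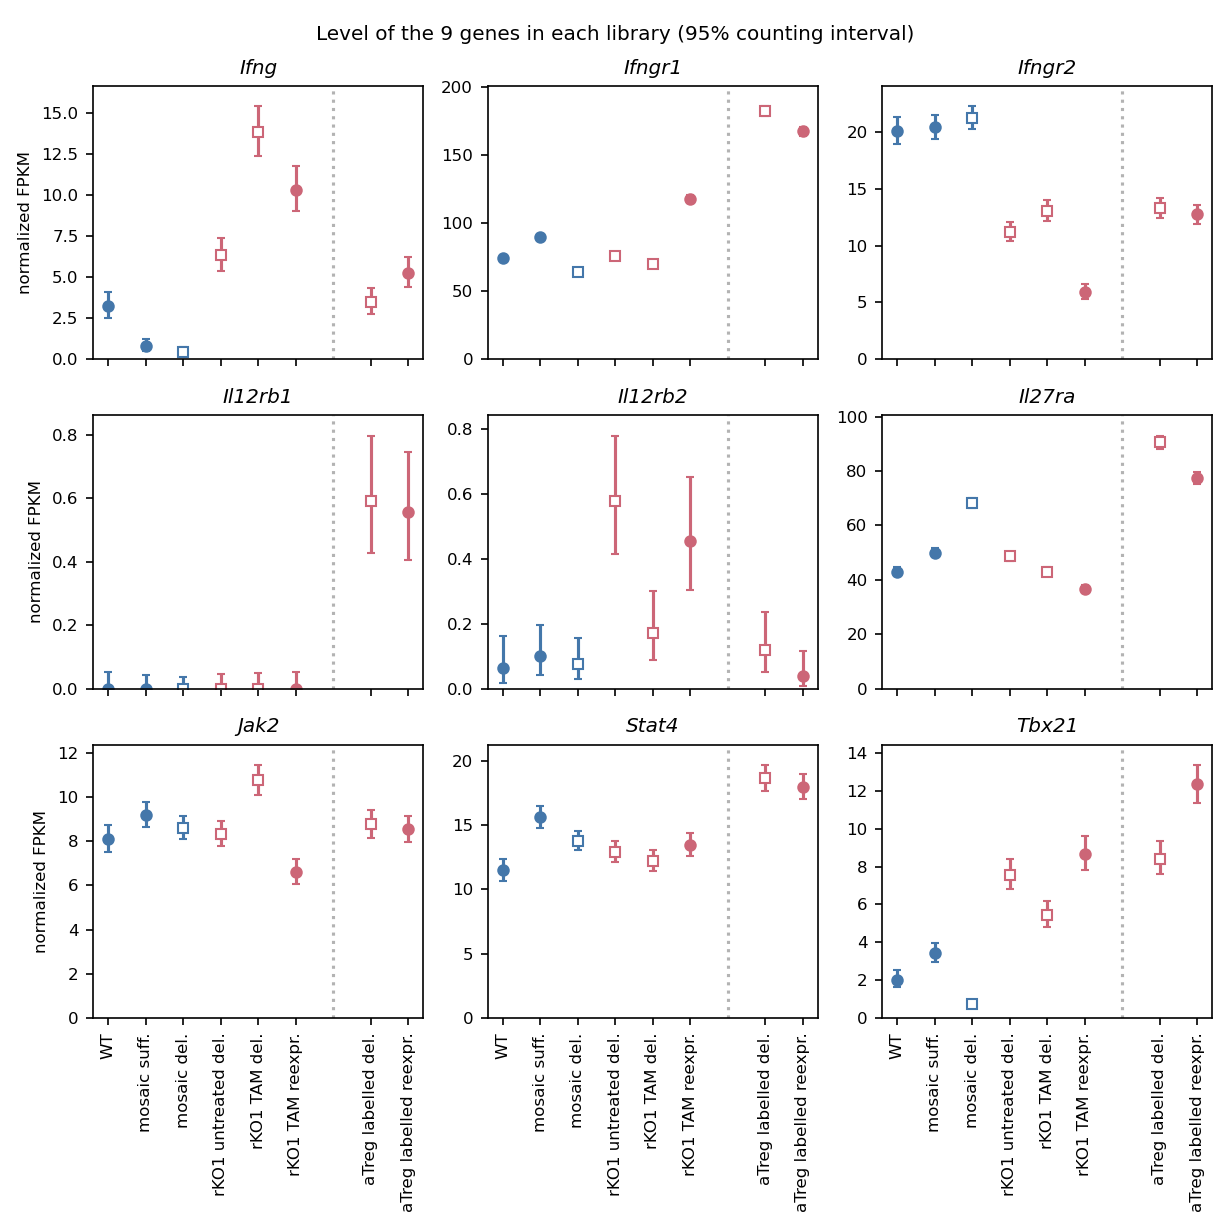
Normalized FPKM (linear axis from 0) of each gene in the 6 total Treg libraries and, right of the dotted line, the 2 aTreg libraries, which were scaled separately; points are single libraries, open squares are labelled *Brg1*-deleted, filled circles *Brg1*-expressing, blue healthy and red rKO1 mice, and bars are 95% counting intervals. *Tbx21* and *Ifng* are higher in all 3 rKO1 libraries than in the 3 libraries of healthy mice, and *Ifngr2* is lower.

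The promoters of the 4 genes that varied most were read from RefSeq (GRCm38.p6) as the 250 bases before and 50 after the start site, each on the strand of its gene, to show what sequence lies at the genes that the results turn on. Of the 9 genes, 7 had a window, with 2 windows for *Stat4*. Windows were searched on both strands for the STAT site TTCNNNGAA, present in 8.3% of 32851 windows of this kind, and for the T-box core TCACAC, present in 14.5%. Capitals mark matches. The window of *Il12rb2* (chr6:67376139-67376438, minus strand) held both, the STAT site starting 123 bases and the T-box core 80 bases before the start site, and that of *Ifng* (chr10:118440796-118441095, plus strand) held a STAT site 249 bases before it. Those of *Tbx21* (chr11:97115282-97115581, minus strand) and *Ifngr2* (chr16:91546809-91547108, plus strand) held neither in this stretch, nor did those of *Stat4*, *Ifngr1* and *Jak2*. A match describes letters and not a bound site.
Il12rb2: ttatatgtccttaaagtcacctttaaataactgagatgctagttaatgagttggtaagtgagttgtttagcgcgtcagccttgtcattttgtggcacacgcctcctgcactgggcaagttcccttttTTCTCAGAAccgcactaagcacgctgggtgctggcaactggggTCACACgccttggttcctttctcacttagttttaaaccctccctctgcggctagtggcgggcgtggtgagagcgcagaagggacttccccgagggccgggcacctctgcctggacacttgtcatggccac
Ifng: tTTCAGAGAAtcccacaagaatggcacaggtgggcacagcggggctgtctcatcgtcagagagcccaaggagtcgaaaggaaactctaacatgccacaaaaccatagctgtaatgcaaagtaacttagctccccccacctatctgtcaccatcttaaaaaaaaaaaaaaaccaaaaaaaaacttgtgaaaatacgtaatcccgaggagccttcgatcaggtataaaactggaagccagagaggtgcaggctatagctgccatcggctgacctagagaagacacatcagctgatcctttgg
Tbx21: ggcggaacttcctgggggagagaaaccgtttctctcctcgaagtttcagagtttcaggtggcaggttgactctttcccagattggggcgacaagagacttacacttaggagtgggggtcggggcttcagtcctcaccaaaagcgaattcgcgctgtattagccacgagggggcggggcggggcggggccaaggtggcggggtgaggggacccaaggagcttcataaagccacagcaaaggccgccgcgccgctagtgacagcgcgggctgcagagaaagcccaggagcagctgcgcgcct
Ifngr2: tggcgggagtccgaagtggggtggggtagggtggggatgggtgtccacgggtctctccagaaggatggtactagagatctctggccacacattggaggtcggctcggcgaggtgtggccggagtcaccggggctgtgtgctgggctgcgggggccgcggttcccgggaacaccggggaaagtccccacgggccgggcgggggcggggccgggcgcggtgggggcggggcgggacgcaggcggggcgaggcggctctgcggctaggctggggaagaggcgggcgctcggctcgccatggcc

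*Ifng*, which encodes the ligand of the axis (chromosome 10, 118441046 to 118445892 on the plus strand of GRCm38), was low in healthy mice and higher in rKO1 mice. Its level was 3.25 in WT (70 reads), 0.836 in the mosaic sufficient library (23 reads) and 0.444 in the mosaic deleted library (14 reads), against 6.36 in untreated rKO1 (158 reads), 13.9 in the GFP+ library (330 reads) and 10.3 in the GFP− library (225 reads). The 3 rKO1 libraries lay above the 3 healthy libraries, and each step in this order exceeded counting error other than that between the mosaic libraries. Untreated rKO1 cells exceeded mosaic *Brg1*-deleted cells, which lack *Brg1* in a healthy mouse, by 14.3-fold (95% interval 8.29 to 26.8) and WT by 1.96-fold (1.47 to 2.63). The 1.96-fold over WT is smaller than the 3.89-fold (2.40 to 6.53) between WT and mosaic sufficient cells, both healthy and *Brg1*-expressing. It is also below the 2.18-fold between the 2 *Brg1*-deleted rKO1 libraries. Of the exon bases of *Ifng*, 25.9% are shared with an overlapping annotated transcript on the same strand (Gm49751), whose reads cannot be separated.

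With *Brg1* reexpressed, *Ifng* was slightly lower: 10.3 in GFP− against 13.9 in GFP+ cells, a 1.34-fold difference (1.13 to 1.60). The GFP+ library was also 2.18-fold (1.80 to 2.65) above untreated rKO1, although both are *Brg1*-deleted, and they differ in TAM treatment and in sex-linked reads. In the same GFP+ library *Il4*, *Il21* and *Csf2*, cytokines of conventional effector T cells, were the highest of the 6 total Treg libraries, and *Tnf* (37.9 CPM) and *Cd40lg* (38.5 CPM) were not. *Il4* was at 45.3 CPM there, against 11.4 CPM in untreated rKO1 and 12.4 CPM in GFP− cells, *Il21* was at 7.67 CPM against 0.730 and 0.178 CPM, and *Csf2* was at 10.2 CPM against 0.990 and 1.78 CPM. Of the 8 markers of these cells, 5 were compared and 4 were at least 2-fold lower in GFP− cells, where 5.64% of all genes were lower, and their summed level was 146 CPM in GFP+, 97.5 CPM in untreated rKO1, 64.5 CPM in GFP− and 68.2 to 100.4 CPM in the healthy libraries. The part of this marker signal in the *Ifng* level was not tested. Fewer cells of a type and less RNA per cell cannot be told apart in bulk samples. Markers of NK cells, which make IFN-γ as well, also differed: *Ncr1*, a receptor of these cells, had 122 reads in GFP+ against 0 in GFP− and 7 in untreated rKO1 cells, *Klrb1c* had 47 against 4 and 3 reads, and *Klre1* had at most 4 reads in any of these 6 libraries. Between mosaic cells *Ncr1* had 104 reads in sufficient and 1 in deleted cells. *Eomes*, of the same marker list, had 71 reads in GFP+, 3 in GFP− and 136 in untreated rKO1 cells. In mosaic sufficient and deleted cells it had 71 and 55 reads. The part of these cells was not tested either. The list of 7 CD8 T and NK markers summed to 123 to 1068 CPM, nearly all from *Nkg7*, which was highest in untreated rKO1 (1053 CPM) and GFP− cells (955 CPM) and at 513 CPM in GFP+ cells.

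Between the aTreg libraries *Ifng* was at 3.49 in the one labelled *Brg1*-deleted (80 reads) and 5.30 in the one labelled *Brg1*-reexpressed (135 reads), 1.52-fold (1.14 to 2.03) higher in the latter. In the same order of libraries *Il4* was at 2.49 and 9.14 CPM, *Cd40lg* at 32.1 and 16.2 CPM and *Tnf* at 68.8 and 58.7 CPM, and *Ncr1* had 8 and 41 reads. Of the conventional effector T markers, 1 of 3 compared was higher and 2 lower in the latter library. Their median log2 fold was −0.23, beside −0.06 for all compared genes. Below 5 CPM in both libraries and so not compared, *Il21* had 5 and 30 reads, *Csf2* 4 and 33, and *Il2* 13 and 46. These were all higher in the latter library, as *Ifng* was. The part of the conventional effector T markers in the *Ifng* level was not tested.

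The other ligands were scarcely present. *Il12a*, *Il12b*, *Il23a* and *Il27*, which encode subunits of IL-12, IL-23 and IL-27, had between 0 and 83 reads in any library, the highest being *Il12a* in untreated rKO1 (4.33 CPM). *Ebi3*, whose product is a subunit of IL-27 and IL-35, was the exception. It was at 22.0 CPM in WT, 27.0 CPM in the mosaic sufficient and 1.35 CPM in the mosaic deleted library, and at 47.1, 32.9 and 68.1 CPM in untreated, GFP+ and GFP− rKO1 cells. *Ebi3* was thus higher with *Brg1* in both total Treg pairs, by 19.9-fold (14.0 to 29.2) and 2.07-fold (1.87 to 2.29), and lower in the library labelled *Brg1*-reexpressed of the aTreg pair (37.5 against 61.6 CPM).

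The genes of the IFN-γ receptor chains behaved unlike each other. *Ifngr1* (chromosome 10, 19591949 to 19610229, plus strand), which encodes the ligand-binding chain, was at 74.0 in WT (3504 reads), 89.6 in the mosaic sufficient library (5422 reads), 64.0 in the mosaic deleted library (4443 reads), 76.1 in untreated rKO1 (4160 reads), 70.3 in GFP+ (3680 reads) and 118 in GFP− cells (5640 reads). The *Brg1*-deleted libraries and WT lay close together and the GFP− library was the highest. *Ifngr1* was 1.40-fold (1.34 to 1.46) higher in sufficient than in deleted mosaic cells and 1.68-fold (1.61 to 1.75) higher in GFP− than in GFP+ cells, both below 2-fold. By contrast, in the aTreg pair it was 167 in the library labelled *Brg1*-reexpressed (9378 reads) and 182 in the one labelled *Brg1*-deleted (9170 reads).

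*Ifngr2* (chromosome 16, 91547072 to 91565623, plus strand), which encodes the signalling chain whose level sets how strongly T cells respond to IFN-γ, was even in healthy mice: 20.04 in WT (1104 reads), 20.4 in the mosaic sufficient library (1435 reads) and 21.2 in the mosaic deleted library (1712 reads), with no step beyond counting error. It was lower in rKO1 mice, at 11.2 in untreated (713 reads), 13.1 in GFP+ (795 reads) and 5.93 in GFP− cells (330 reads). The rKO1 and healthy libraries did not overlap. It was 2.20-fold (1.93 to 2.51) lower in GFP− than in GFP+ cells, 3.44-fold (3.05 to 3.89) lower in GFP− than in mosaic sufficient cells, and 1.79-fold (1.62 to 1.97) lower in untreated rKO1 than in WT. In the aTreg pair it was 13.3 in the library labelled *Brg1*-deleted (884 reads) and 12.7 in the one labelled *Brg1*-reexpressed (944 reads), within counting error. Myeloid cells also express *Ifngr2*: of 10 myeloid and dendritic markers, 5 were compared and 4 were at least 2-fold lower in GFP− than in GFP+ cells, where 5.64% of all genes were lower, and their summed level was 44.6 CPM in GFP−, 99.2 CPM in GFP+, 106 CPM in untreated rKO1, 120 and 131 CPM in the mosaic libraries and 400 CPM in WT, where *Lyz2* alone gave 376 CPM. *Lyz2* carries these sums, and the macrophage markers *Csf1r* (17.0 CPM in untreated rKO1, 6.96 in GFP+, 3.81 in GFP−, 7.999 in WT, 1.84 and 1.31 in mosaic cells) and *Adgre1* (9.95, 7.45, 2.56, 6.92, 0.282 and 0.451 CPM) followed another order. Their part in the *Ifngr2* level was not tested. In the total Treg experiment the reads of *Ifngr2* became whole only with an exon length of 3313 bases, against 3767 bases annotated and used in the aTreg experiment, so its levels are not comparable between the experiments.

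Put as a ratio per length within a library, there were 3.69 *Ifngr1* fragments for 1 of *Ifngr2* in WT, 4.40 in mosaic sufficient, 3.02 in mosaic deleted, 6.79 in untreated rKO1, 5.39 in GFP+ and 19.9 (17.8 to 22.3) in GFP− cells. Scaling of the libraries does not enter this ratio. It was highest in the GFP− library, in which *Ifngr1* was the highest of the 6 and *Ifngr2* the lowest. In the aTreg pair the ratio was 13.7 in the library labelled *Brg1*-deleted and 13.1 in the one labelled *Brg1*-reexpressed, on the longer *Ifngr2* length.

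**Figure D2:**
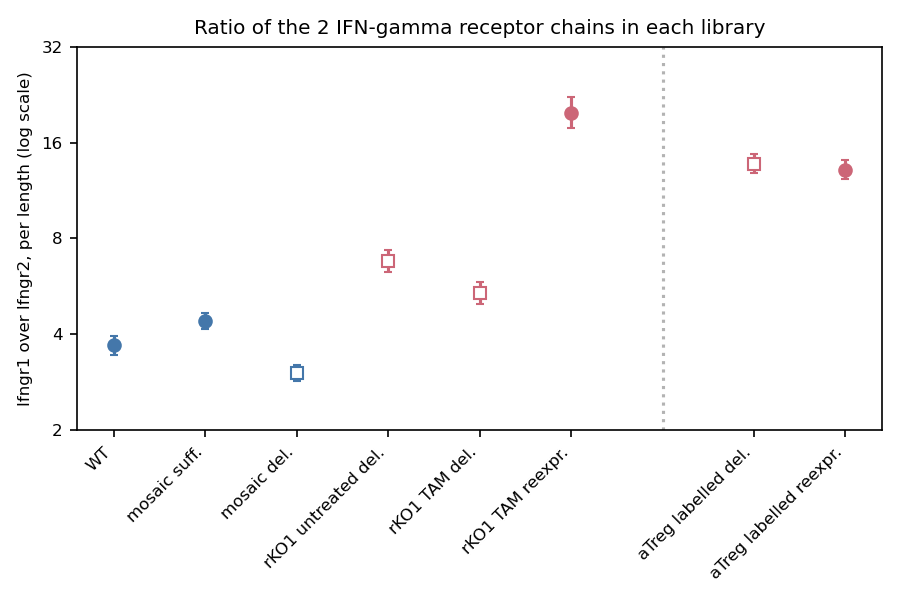
Ratio of *Ifngr1* to *Ifngr2* per exon length (log axis) in each library, with 95% counting intervals; open squares are labelled *Brg1*-deleted, filled circles *Brg1*-expressing, blue healthy and red rKO1 mice, and the dotted line separates the aTreg libraries, in which a longer *Ifngr2* length was used. The GFP− rKO1 library stands at 19.9, and the other 5 total Treg libraries lie between 3.02 and 6.79.

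Of the IL-12 receptor chains, *Il12rb2* was close to undetected, and no level could be read for *Il12rb1* in the total Treg libraries. *Il12rb2* (chromosome 6, 67291318 to 67376188, minus strand), the inducible signalling chain, had 4 reads in WT, 8 in the mosaic sufficient and 7 in the mosaic deleted library, 42 in untreated rKO1, 12 in GFP+ and 29 in GFP− cells, or 0.0634, 0.0993, 0.0757, 0.577, 0.172 and 0.455 as normalized FPKM. No library reached 5 CPM. Untreated rKO1 cells exceeded WT by 9.10-fold (3.30 to 34.9) and mosaic deleted cells by 7.62-fold (3.39 to 20.1), and GFP− exceeded GFP+ cells by 2.64-fold (1.31 to 5.69). The 3 healthy libraries did not differ beyond counting error. In the aTreg pair there were 8 reads in the library labelled *Brg1*-deleted and 3 in the one labelled *Brg1*-reexpressed, so that no difference was detectable at this depth. Since 40.0% of the exon bases overlap *Serbp1* on the opposite strand, and *Serbp1* reads can be counted there, part of these few reads may not belong to *Il12rb2*.

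*Il12rb1* (chromosome 8, 70808449 to 70821424, plus strand), the chain that the IL-12 and IL-23 receptors share, was listed at 0 in all 6 total Treg libraries and had 43 and 45 reads in the aTreg libraries labelled *Brg1*-deleted and *Brg1*-reexpressed (0.592 and 0.557). Among 11786 genes with at least 20 reads in both aTreg libraries, only 4 were listed at 0 in all 6 total Treg libraries. Of these, 3 lie side by side on chromosome 8: *Pik3r2* (70768176 to 70776713), *Il12rb1* and *Arrdc2* (70835129 to 70839720). The fourth was the pseudogene *Trp53-ps*. The 0 of *Il12rb1* therefore stands with those of its neighbours and is given as listed, without reading a level from it.

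*Il27ra* (chromosome 8, 84030294 to 84042589, minus strand), the IL-27 receptor chain, was abundant throughout. It was at 43.0 in WT (2501 reads), 49.9 in the mosaic sufficient and 68.3 in the mosaic deleted library (3708 and 5817 reads), and 48.7, 43.0 and 36.5 in untreated, GFP+ and GFP− rKO1 cells (3264, 2765 and 2147 reads). It was lower in the library labelled with *Brg1* in each pair, by 1.37-fold (1.31 to 1.43) in mosaic cells, 1.18-fold (1.11 to 1.25) in rKO1 cells after TAM and 1.17-fold (1.13 to 1.22) between the aTreg libraries (77.4 against 90.6), all below 2-fold. With *Smarca4* itself higher in the aTreg library labelled *Brg1*-deleted, the direction of the last pair rests on its labels. *Il6st*, which encodes gp130, its signalling partner, was lower with *Brg1* in both total Treg pairs as well, and in the aTreg pair at 28.1 CPM in the library labelled *Brg1*-reexpressed against 49.96 CPM in the other. It was at 59.5 CPM in WT, 76.4 and 97.8 CPM in mosaic sufficient and deleted cells, 36.8 CPM in untreated rKO1, 43.7 CPM in GFP+ and 18.7 CPM in GFP− cells, and the GFP− level was 2.34-fold below GFP+. Like *Ifngr2*, *Il6st* was lower in the 3 rKO1 libraries than in the 3 healthy libraries and lowest in GFP− cells.

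*Jak2* (chromosome 19, 29251828 to 29313080, plus strand), the kinase that serves both the IL-12 and the IFN-γ receptors, was at 8.10 in WT (677 reads), 9.21 and 8.62 in mosaic sufficient and deleted cells (984 and 1057 reads), 8.34 in untreated rKO1 (805 reads), 10.8 in GFP+ (996 reads) and 6.62 in GFP− cells (560 reads). The first 4 of these libraries were within a narrow band, and only the treated rKO1 libraries left it, in opposite directions. *Jak2* was 1.63-fold (1.46 to 1.81) lower in GFP− than in GFP+ cells, and the aTreg libraries did not differ beyond counting error (8.76 in the library labelled *Brg1*-deleted, 780 reads, and 8.54 in the other, 846 reads). The other kinases of these receptors, *Jak1* (267 to 509 CPM) and *Tyk2* (37.0 to 60.1 CPM), were not changed 2-fold in any of the 3 *Brg1* pairs.

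*Stat4* (chromosome 1, 51987148 to 52107189, plus strand), which encodes the transcription factor activated by IL-12, was the most even gene. It was at 11.5 in WT (739 reads), 15.6 and 13.8 in mosaic sufficient and deleted cells (1284 and 1298 reads), 12.9 in untreated rKO1 (958 reads), 12.2 in GFP+ (867 reads) and 13.4 in GFP− cells (874 reads). Neighbours in this order differed beyond counting error only at the top, between the mosaic libraries. It was 1.13-fold (1.05 to 1.23) higher in sufficient than in deleted mosaic cells and 1.10-fold (1.0026 to 1.21) higher in GFP− than in GFP+ cells, a log2 fold of 0.14 that turned to −0.21 with scaling by the library total alone, and the aTreg libraries were at 18.6 and 18.0 (1275 and 1370 reads). Of its exon bases, 26.7% overlap other annotated genes, Gm28177 among them.

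*Tbx21* (chromosome 11, 97098071 to 97115331, minus strand), which encodes T-bet, was higher in the library labelled with *Brg1* in each pair and higher in rKO1 than in healthy mice. It was at 2.03 in WT (84 reads), 3.42 in mosaic sufficient cells (181 reads) and 0.726 in mosaic deleted cells (44 reads), the lowest of all, and at 7.58 in untreated rKO1 (362 reads), 5.44 in GFP+ (249 reads) and 8.68 in GFP− cells (363 reads). Each of the 3 rKO1 libraries lay above each healthy library, including the *Brg1*-deleted ones. In mosaic females *Tbx21* was 4.72-fold (3.38 to 6.72) higher in sufficient than in deleted cells. In rKO1 mice after TAM it was 1.59-fold (1.35 to 1.88) higher in GFP− than in GFP+ cells, and in the aTreg pair 1.47-fold (1.29 to 1.67) higher in the library labelled *Brg1*-reexpressed (12.4, 605 reads) than in the one labelled *Brg1*-deleted (8.43, 371 reads). It was 10.4-fold (7.63 to 14.6) higher in untreated rKO1 than in mosaic deleted cells, 3.73-fold (2.94 to 4.79) higher than in WT, and 2.53-fold (2.11 to 3.05) higher in GFP− than in mosaic sufficient cells. *Foxp3* was also higher in mosaic sufficient than in deleted cells, by 2.19-fold (2.12 to 2.26), and 1.03-fold (0.969 to 1.10) in GFP− over GFP+ cells. NK cells express *Tbx21* too. The *Ncr1* and *Eomes* reads given above were higher in sufficient than in deleted mosaic cells, but lower in GFP− than in GFP+ cells. *Nkg7*, of the same marker list, went the other way in both pairs. It was at 111 and 167 CPM in mosaic sufficient and deleted cells, and at 955 and 513 CPM in GFP− and GFP+ cells. The part of *Foxp3* or of such cells in the *Tbx21* differences was not tested.

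Counted against all genes, the members did not move as a block. A gene was compared where it had at least 5 CPM in either library and was called at a 2-fold difference. In the mosaic pair 1 of 6 compared members was called (*Tbx21*, higher), against a background of 6.09% of 10064 genes. In rKO1 mice after TAM it was 1 of 7 (*Ifngr2*, lower), against 12.8% of 10307 genes, and in the aTreg pair 0 of 7, against 6.44% of 10035 genes. The median log2 fold of the compared members was 0.14, −0.24 and −0.05 in these pairs, beside 0.03, 0.06 and −0.06 for all compared genes. The scaling matters for the second pair: of all genes 735 were called higher and 581 lower, but with scaling by the library total alone, which moved the median of all genes to −0.30, 373 were higher and 1249 lower, and *Jak2* then joined *Ifngr2* as lower. In the mosaic pair the split of 404 higher and 209 lower became 300 and 306, and *Tbx21* stayed higher.

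**Figure D3:**
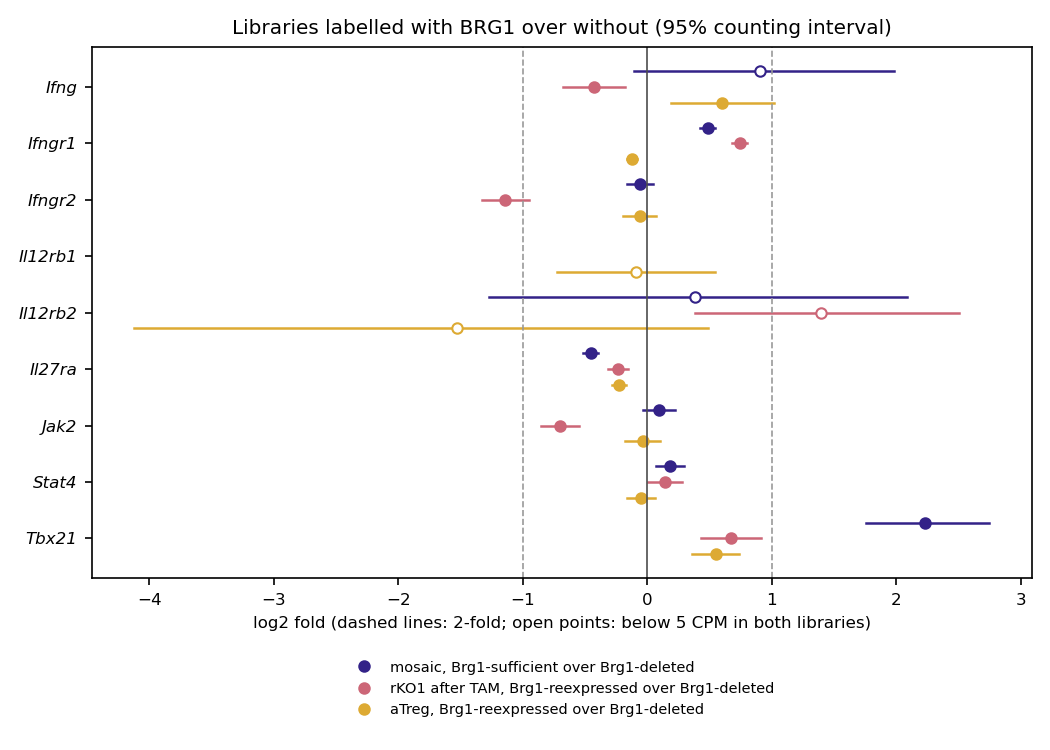
Log2 fold of each gene in the 3 pairs of libraries labelled with over without *Brg1*, with 95% counting intervals (bars); dashed lines mark 2-fold, and open points are genes below 5 CPM in both libraries. *Tbx21* lies right of 0 in each pair, and *Ifngr2* passes the 2-fold line, to the left, in the rKO1 pair.

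Members were also counted between inflamed and healthy mice. In untreated rKO1 over WT, 1 of 7 was called (*Tbx21*), against 15.7% of all genes, in untreated rKO1 over mosaic deleted cells 2 of 7 (*Ifng* and *Tbx21*), against 15.1%, and in GFP− over mosaic sufficient cells 3 of 7 (*Ifng* and *Tbx21* higher, *Ifngr2* lower), against 21.8%. The first and second of these share the untreated rKO1 library, so their folds are not independent of each other. In the first, scaling by the library total alone turned 900 higher and 745 lower genes into 1654 and 463 and added *Ifng*. In the second it turned 850 and 725 into 1258 and 471. The untreated rKO1 library held Y-linked reads and next to no *Xist* and the WT and mosaic libraries the reverse, so sex and disease cannot be told apart there. In the third comparison the GFP− library held 1416 Y-linked reads and the mosaic sufficient library 0. These libraries also differ in TAM treatment and in the YFP gate. Disease cannot be told apart from these differences in the third comparison either. As a yardstick, the 2 healthy *Brg1*-expressing libraries, WT over mosaic sufficient, called 0 of 6 members against 9.32% of all genes, but *Ifng* was 3.89-fold (2.40 to 6.53) higher in WT with under 5 CPM in both, and *Tbx21* was 1.69-fold (1.29 to 2.21) lower. The 2 *Brg1*-deleted rKO1 libraries, GFP+ over untreated, called 1 of 7 (*Ifng*) against 4.42%, with *Tbx21* 1.39-fold (1.18 to 1.64) lower. These 2 libraries also differ in TAM treatment and in sex-linked reads. *Xist* had 934 reads in GFP+ and 10 in untreated cells, and Y-linked reads were 2083 and 4155. The *Tbx21* differences of the rKO1 and aTreg pairs (1.59-fold and 1.47-fold) lie below the 1.69-fold between the 2 healthy *Brg1*-expressing libraries. They lie above the 1.39-fold between the 2 *Brg1*-deleted rKO1 libraries, and that of the mosaic pair (4.72-fold) lies above both. WT and mosaic sufficient cells came from different mice, had *Foxp3* at 72.9 and 535 CPM, and the latter lack YFP. The GFP+ and GFP− cells both came from treated rKO1 mice, so the 1.69-fold is not a like yardstick for them.

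**Figure D4:**
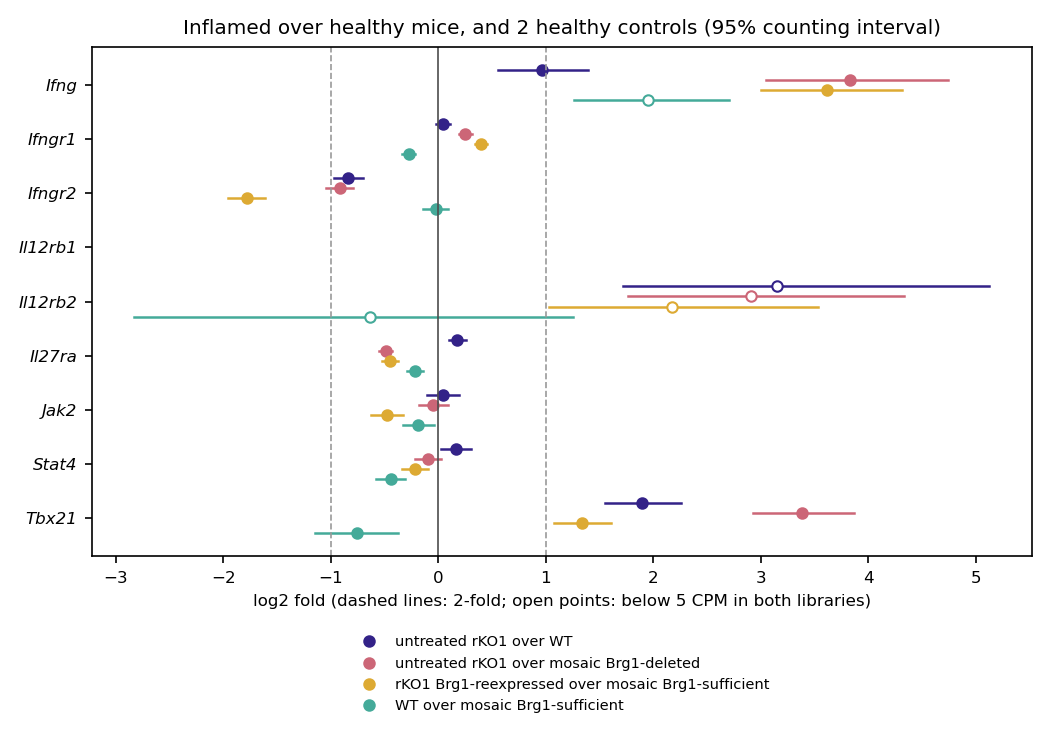
Log2 fold of each gene in 3 comparisons of rKO1 over healthy mice and in WT over mosaic *Brg1*-sufficient cells, with 95% counting intervals (bars); dashed lines mark 2-fold, and open points are genes below 5 CPM in both libraries. *Ifng*, *Il12rb2* and *Tbx21* lie right of 0 and *Ifngr2* left of 0 in the 3 comparisons of rKO1 with healthy mice.

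Downstream of T-bet, 13 known target genes were examined. The study itself picked *Cxcr3* and *Gzmb*, among others, from these libraries, so their direction is not independent evidence. In the mosaic pair 6 of 10 compared genes were at least 2-fold higher with *Brg1* and 1 lower (*Fasl*), where 4.01% of all genes were higher, with a median log2 fold of 1.04 beside 0.03 for all genes. In rKO1 mice after TAM 5 of 11 were higher and 2 lower (*Xcl1* and *Fasl*), where 7.13% of all genes were higher, with a median of 0.77 beside 0.06, and in the aTreg pair 6 of 11 were higher in the library labelled *Brg1*-reexpressed, where 4.4% of all genes were higher, with a median of 1.502 beside −0.06. *Cxcr3*, a chemokine receptor of Th1 sites, was at 53.4 CPM in WT, 75.7 and 4.06 CPM in mosaic sufficient and deleted cells, 153 CPM in untreated rKO1, 99.7 CPM in GFP+ and 525 CPM in GFP− cells. Its fold of 5.27 (5.01 to 5.54) between GFP− and GFP+ cells stands beside 1.59 for *Tbx21* itself. In the mosaic pair the fold of *Cxcr3* was 18.6 (15.2 to 23.1) beside 4.72 for *Tbx21*. Such an excess over *Tbx21* was not seen in the aTreg pair. There *Cxcr3* was at 193 CPM in the library labelled *Brg1*-deleted and 241 CPM in the one labelled *Brg1*-reexpressed. That 1.25-fold difference was below 2-fold, so *Cxcr3* was not among the 6 genes, and it was smaller than the *Tbx21* fold of that pair given above. *Gzmb*, a cytotoxic protease, was at 2516 CPM in GFP− against 345 CPM in GFP+ cells, and *Ccl4*, a chemokine, at 54.1 against 21.9 CPM.

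Downstream of the IFN-γ receptor, 22 response genes were examined. In the mosaic pair 1 of 21 compared genes was at least 2-fold higher (*Cxcl10*) and 1 lower (*Nlrc5*), where 4.01% of all genes were higher and 2.08% lower, with a median of 0.05. In rKO1 mice after TAM 2 of 22 were higher (*Iigp1* and *Ciita*) and 2 lower (*Cxcl9* and *Cxcl10*), where 7.13% and 5.64% of all genes were, with 16 of 22 above 0 and a median of 0.47 beside 0.06 for all genes. In untreated rKO1 over WT 5 of 22 were higher and 0 lower, where 8.6% of all genes were higher, with a median of 0.67 beside −0.05. In the aTreg pair 1 of 21 was higher (*Cxcl9*) and 0 lower, where 4.4% of all genes were higher, with 12 of 21 below 0 and a median of −0.04. *Iigp1*, an immunity-related GTPase, was at 166 CPM in WT, 159 and 98.8 CPM in mosaic sufficient and deleted cells, and 273, 114 and 265 CPM in untreated, GFP+ and GFP− rKO1 cells. *Ciita*, the activator of MHC class II genes, was at 1.92 CPM in WT, 9.41 and 5.75 CPM in mosaic cells, and 16.2, 4.13 and 8.80 CPM in the same rKO1 order. Both were lowest among the rKO1 libraries in GFP+ cells, the library with the most *Ifng*. Whether the response genes follow the *Ifng* mRNA of the sorted cells was not tested. Over the list, 20 of 22 response genes were below 0 in GFP+ over untreated cells, with a median of −0.54 beside 0.00 for all genes. *Ifng* was 2.18-fold higher there, and the libraries of this comparison also differ in TAM treatment and in sex-linked reads. *Cxcl9* and *Cxcl10*, chemokines that bind CXCR3, were lowest among the rKO1 libraries in GFP− cells. *Cxcl10* was at 101 and 95.5 CPM in untreated and GFP+ cells and at 42.8 CPM in GFP− cells, and *Cxcl9* was at 14.5, 9.14 and 3.75 CPM. In the aTreg libraries labelled *Brg1*-deleted and *Brg1*-reexpressed, *Cxcl9* was at 2.77 and 23.9 CPM. The myeloid and dendritic markers summed to 458 and 677 CPM there, with 3 of 5 compared higher and 2 lower in the latter. Among the rKO1 libraries *Csf1r* and *Adgre1*, given above, fell in the same order as *Cxcl9*. *S100a8* and *S100a9*, of the same marker list, were highest in GFP+ cells. The part of myeloid cells in the *Cxcl9* and *Cxcl10* levels was not tested.

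Among 21 partners of the axis (other receptor chains, kinases, STATs, cofactors and inhibitors), 1 of 18 compared genes was at least 2-fold higher in the mosaic pair and 0 lower (6.09% of all genes in either direction), 0 were higher and 1 lower (*Il6st*) in rKO1 mice after TAM (12.8%), and 0 of 18 were called in the aTreg pair (6.44%). In untreated rKO1 over WT 4 of 19 were higher, where 8.6% of all genes were, namely *Eomes*, *Il18r1*, *Il18rap* and *Runx3*. *Il18rap*, a chain of the IL-18 receptor, was at 3.07 CPM in WT, 7.15 and 1.27 CPM in mosaic sufficient and deleted cells, and 28.6, 14.6 and 18.2 CPM in untreated, GFP+ and GFP− rKO1 cells. It was 5.62-fold (3.80 to 8.57) higher in sufficient than in deleted mosaic cells and 1.25-fold (1.06 to 1.48) higher in GFP− than in GFP+ cells, an order like that of *Tbx21*. *Il18r1*, the other chain, was at 20.5, 20.5, 11.2, 58.1, 35.4 and 56.0 CPM in the same order of libraries. *Runx3*, which acts with T-bet, was 1.85-fold (1.65 to 2.07) higher in sufficient than in deleted mosaic cells, 0.979-fold (0.889 to 1.078) in GFP− over GFP+ cells and 3.62-fold (3.18 to 4.13) higher in untreated rKO1 than in WT, while WT was itself 2.26-fold below mosaic sufficient cells.

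**Figure D5:**
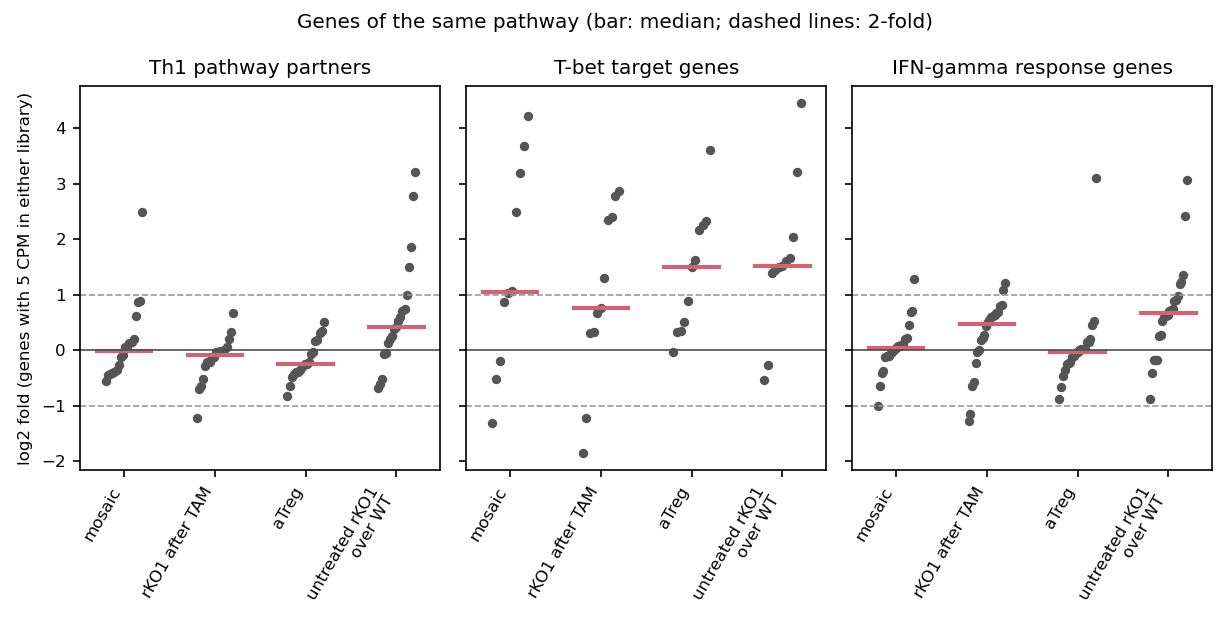
Log2 folds of the compared genes (points) of 3 lists in the 3 *Brg1* pairs and in untreated rKO1 over WT, with the median as a red bar and dashed lines at 2-fold. The medians of the T-bet target genes (0.77 to 1.51) exceed those of the partners (−0.26 to 0.42) and of the IFN-γ response genes (−0.04 to 0.67) in each comparison.

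Genes whose pattern over the 6 total Treg libraries was most like that of a member were ranked by the root mean square difference of centred log2 CPM among 11036 genes, as a description with no test. For *Tbx21* these were *Cst7* (0.18), *Cemip2* (0.25) and *Cobll1* (0.27). *Cst7*, which encodes cystatin F, an inhibitor of proteases in cytotoxic granules, was at 90.2 CPM in WT, 159 and 41.9 CPM in mosaic sufficient and deleted cells, and 324, 211 and 366 CPM in untreated, GFP+ and GFP− rKO1 cells. For *Ifngr2* they were *Apol9a* (0.08), *Spaca1* (0.10) and *Dcun1d2* (0.12), of which *Apol9a* was at 105, 109 and 122 CPM in the healthy libraries and 60.7, 62.9 and 30.9 CPM in the rKO1 libraries. For *Ifng* the nearest genes were farther away: *Smim3* (0.46), *Slc11a1* (0.52) and *Bmpr1a* (0.55).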

How the data were processed

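Total RNA of 0.1 M sorted cells per sample was amplified and sequenced. The authors deposited FPKM values per gene; the submitters' processing notes name HISAT2 2.0, StringTie 1.3.3b, featureCounts 1.5.0-p3 and mm10. The unit is not written in the files and was settled from the values. Values were converted to reads through exon lengths of GENCODE release M21 (GRCm38), merged per gene, and a total per library. With annotated lengths, 93.4% of 26020 genes with reads in the total Treg experiment became whole within 0.02 reads, 1705 more with a fitted length and 3 not. In the aTreg experiment, 100% of 21242 did. The implied totals were 0.814 to 1.08 times the recovered reads. Libraries were rescaled by an own implementation of TMM. Folds used a prior of 0.125 reads. Genes with 5 CPM in either library were compared and called at 2-fold, after the study's methods. Exact (Clopper-Pearson) 95% intervals cover counting error only, and PCR copies are not independent molecules. Of the identifiers, 105 were not in the annotation. Alternatives were scaling, deposited FPKM, filter, prior, fold and overlapping genes.

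The 9 members and the 11 gene lists were chosen with earlier results of these data known. The text names all members and, of each list, up to 4 genes of largest change in the mosaic or rKO1 pair. *Eomes*, *Fasl*, *Nlrc5*, *Xcl1*, *Jak1*, *Tyk2*, *Tnf*, *Csf1r*, *Klrb1c*, *Klre1*, the absent ligands and the promoter motifs were added after values were seen. The other lists were Treg, CD4 T, CD8 T or NK, conventional effector T, B, and myeloid or dendritic markers, and the ligands. Some genes of the lists are not reported here. The steps were tested on simulated reads. Scripts ran in Python 3.11.15 (pandas 2.3.3, SciPy 1.17.1, NumPy 2.4.6), with plots from matplotlib 3.10.9.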

Additional observations from a re-analysis of the deposited data

Results flagged for a closer look

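The direction of 2 members differed between experiments, each pair being single libraries, so the differences were not tested. *Ifng* had a log2 fold of −0.42 with *Brg1* reexpressed in rKO1 cells after TAM and of 0.60 between the aTreg libraries as labelled, a gap of −1.02. *Ifngr1* had a log2 fold of 0.75 in rKO1 cells after TAM and of −0.12 between the aTreg libraries, a gap of 0.87, and of 0.49 in the mosaic pair, a gap of 0.61 to the aTreg libraries. *Smarca4* was 1.198-fold higher in the aTreg library labelled *Brg1*-deleted, so the direction of the aTreg pair rests on its labels. The aTreg libraries also differed in their sex-linked reads.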

How the results depend on the processing

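Leaving out a replicate was not possible with 1 library per condition. No paired analysis was possible because each condition has 1 library. No called member changed direction under the alternatives run. The 65 log2 folds of members with reads moved by less than their counting interval with TMM over the compared libraries (65 of 65) and with a prior of 2 reads (65 of 65), and 6 moved by more with deposited FPKM and 27 with scaling by the library total, the sign of *Jak2*, *Stat4* or *Ifngr2* turning only for folds of at most 0.14 in size.

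Counts of called members moved as follows. In rKO1 mice after TAM, 1 became 2 with the library total (*Jak2* added), 2 at 1 CPM or with no filter (*Il12rb2* added) and 4 at 1.5-fold. In the aTreg pair, 0 became 1 with no filter (*Il12rb2*, lower) and 1 at 1.5-fold (*Ifng*). In untreated rKO1 over WT, 1 became 2 with the library total (*Ifng* added), 2 at 1 CPM or with no filter, and 3 at 1.5-fold. In WT over mosaic sufficient cells, 0 became 1 with deposited FPKM, at 1 CPM and with no filter (*Ifng*) and 1 at 1.5-fold (*Tbx21*, lower). In GFP+ over untreated cells, 1 became 2 at 1 CPM or with no filter. Without *Ifng*, *Il12rb2* and *Stat4*, whose exons overlap other genes (chosen after seeing the data), it became 0, and untreated rKO1 over mosaic deleted cells went from 2 to 1. Filters, fold and members left out change the counts by construction.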

Other observations

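*Maf* and *Batf*, transcription factors of helper and regulatory T cells, were higher with *Brg1* in mosaic cells as *Tbx21* was. The log2 fold of *Maf* was 2.57 in mosaic sufficient over deleted cells and 1.29 in GFP− over GFP+ rKO1 cells, and that of *Batf* was 1.21 in the mosaic pair.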
